A study of Mus musculus with 29 samples.

Results

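The interleukin-1 ligands, their natural antagonist and their receptors were followed in mouse brain and blood after stroke. The set holds 6 genes, Il1a, Il1b, Il18, Il1rn, Il1r2 and Il1rap, of 27827 genes in the deposited tables, and was chosen by name, not by measured level. All 6 are in the brain tables. The blood tables hold 5 of them, and Il1a in blood is not analysed here. Single cells had been profiled by Drop-seq, which counts transcript molecules of cells caught in droplets with barcoded beads, in 29 libraries of C57BL/6J mice. Mice had a transient middle cerebral artery occlusion (tMCAO) or sham surgery. From young males (8 to 10 weeks) came 4 brain libraries each of sham day 2, stroke day 2 and stroke day 14, and 4, 4 and 3 blood libraries of the same groups. From aged mice (17 to 20 months) came brain samples of sham day 2 (1 male and 1 female), stroke day 2 (1 male and 2 female) and stroke day 14 (1 female). A brain library pooled 4 to 5 hemispheres, digested with papain and sorted for CD45-high leukocytes, microglia and endothelial cells. A blood library pooled 2 mice after red cell lysis. There was no sham group at day 14, so the day 14 comparisons set day 14 stroke against day 2 sham.

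Il1a and Il1b encode interleukin-1 alpha and beta, cytokines that start and spread inflammation. Interleukin-1 beta and interleukin-18 are made as inactive precursors and are cut by caspase-1 in inflammasomes before release, so transcript levels do not show how much active cytokine was made. Il1rn encodes the receptor antagonist, which occupies the signalling receptor without activating it. Il1r2 encodes a decoy receptor that binds the ligands and does not signal, and Il1rap the accessory chain with which the ligand-bound signalling receptor works. In stroke models, blocking interleukin-1 with the antagonist has long been studied as a treatment.

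Il1a, Il1b and Il1rn lie on chromosome 2, with Il1a at chr2:129299609-129310186 and Il1b at chr2:129364569-129371164 on the minus strand and Il1rn at chr2:24336860-24351491 on the plus strand (RefSeq, GRCm38.p6). Il1r2 lies at chr1:40084692-40125230, Il18 at chr9:50554700-50581841 and Il1rap at chr16:26581509-26730128, all on the plus strand. Il1b and Il1rn were high in the same myeloid cells, so the sequences upstream of their start sites are shown, together with the core of the Il1a promoter. None overlaps an annotated exon, and all are printed 5′ to 3′ on the coding strand. The stretch before the second Il1rn start and the Il1a stretch lie within the gene spans given above. Capitals mark matches to TATAAA (coding strand), to the AP-1 motif TGANTCA and to the kappaB motif GGGANNNNCC (both strands). Positions count from the start site, with negative numbers upstream.
Il1b, chr2:129371165-129371389, minus strand, -250 to -26: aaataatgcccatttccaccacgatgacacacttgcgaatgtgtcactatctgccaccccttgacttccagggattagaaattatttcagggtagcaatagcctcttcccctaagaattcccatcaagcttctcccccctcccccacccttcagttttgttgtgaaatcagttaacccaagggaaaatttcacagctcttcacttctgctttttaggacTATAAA
Il1rn, upstream start, chr2:24336610-24336852, plus strand, -250 to -8: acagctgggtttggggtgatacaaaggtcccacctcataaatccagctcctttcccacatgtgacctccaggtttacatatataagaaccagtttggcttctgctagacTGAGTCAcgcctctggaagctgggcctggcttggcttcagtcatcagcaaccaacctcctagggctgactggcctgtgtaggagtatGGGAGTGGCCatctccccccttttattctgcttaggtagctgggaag
Il1rn, the second start, chr2:24345041-24345287, plus strand, -250 to -4: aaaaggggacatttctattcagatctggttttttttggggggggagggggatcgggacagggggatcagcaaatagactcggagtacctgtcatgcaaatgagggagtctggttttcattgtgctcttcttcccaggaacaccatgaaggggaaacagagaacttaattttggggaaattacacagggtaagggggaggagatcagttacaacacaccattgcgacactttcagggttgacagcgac
Il1a, chr2:129309978-129310007, minus strand, -35 to -6: gacTATAAAaaggcagagaagccTGACTCA
The Il1b stretch holds TATAAA at -31 to -26 and neither of the other motifs. Upstream of the outer Il1rn start, an AP-1 match lies at -141 to -135 and a kappaB match at -54 to -45, while the stretch before the second Il1rn start holds none of the 3. Il1a has TATAAA at -32 to -27 and an AP-1 match at -12 to -6. Among 32851 promoters of 250 bases before to 50 after the start, 8.32% hold TATAAA, 7.81% the AP-1 motif and 20.7% the kappaB motif. A match is a run of letters, not a bound site, and the deposited counts do not tell which Il1rn start was used.

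Per library, brain gave 1143 to 5121 cells with 819438 to 5855047 counts, and blood gave 2360 to 6328 cells with 966914 to 5232662 counts. Levels are CPM, the counts of a gene per 1000000 counts summed over 1 library's cells of 1 annotated type. They are compared between cell types and groups for 1 gene at a time, and not between genes, whose lengths and capture differ. The authors' parent types were checked against marker lists of up to 6 genes. Microglia (Mg), border macrophages (BAM), endothelial cells (EC), T cells (Tc), B cells (Bc) and NK cells had their own list highest, as did the neutrophil list in granulocytes of brain (Gran) and neutrophils of blood (Neu) and the monocyte list in monocyte-derived cells of brain (MdC) and monocytes of blood (Mo). The code DC went against its name, with a mean monocyte marker level of 769 CPM and a mean dendritic marker level of 246 CPM in young brain, and is called DC here without a cell type name. One library stood apart. In stroke day 2 library 3, microglia numbered 58, and their 6 microglia markers summed to 816.5 CPM, against 12046 to 13328 CPM in the other day 2 stroke libraries, while their monocyte markers summed to 895.6 CPM against 0 to 141 CPM. The differences of day 2 microglia from sham and from day 14 are therefore also given without it. No library shared more than 7 cell barcodes with another. Libraries are pools of animals, and the p-values measure the spread between these libraries.

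Each gene had its own order of cell types in young brain, given over the 12 young libraries without a test, for types with at least 20 cells in a library. Il1b was highest in granulocytes (14979.6 ± 8358 CPM, SD), then 5234 ± 1628 CPM in monocyte-derived cells, with DC and border macrophages within the spread of the latter. Il1rn ran from 814 ± 773 CPM in granulocytes through 145 CPM in monocyte-derived cells and 72.3 CPM in border macrophages to 35.3 CPM in DC, with neighbours in that order overlapping. Il1r2 was at 2904 ± 1284 CPM in granulocytes, 254 ± 188 CPM in DC and 61.1 CPM in monocyte-derived cells. Il1rap was likewise highest in granulocytes, at 297 ± 184 CPM, against 14.9 CPM or less in the other types ranked. Oligodendrocytes (OD), which had too few cells to be ranked, were at 139.7 CPM of Il1rap and 93.5 CPM of Il18 as 71 cells pooled over 11 libraries. The other 2 ligands had a different order. Il1a was highest in microglia (152 ± 123 CPM), above granulocytes (76.9 CPM), border macrophages (59.6 CPM) and monocyte-derived cells (44.5 CPM), all within its spread. Il18 was at 73.8 CPM in border macrophages, 73.6 CPM in microglia and 53.8 CPM in monocyte-derived cells. In blood, neutrophils were highest for Il1b (5639 CPM), Il1rn (195 CPM), Il1r2 (735 CPM) and Il1rap (281 CPM), and monocytes for Il18 (46.5 ± 18.2 CPM).

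**Figure D1:**
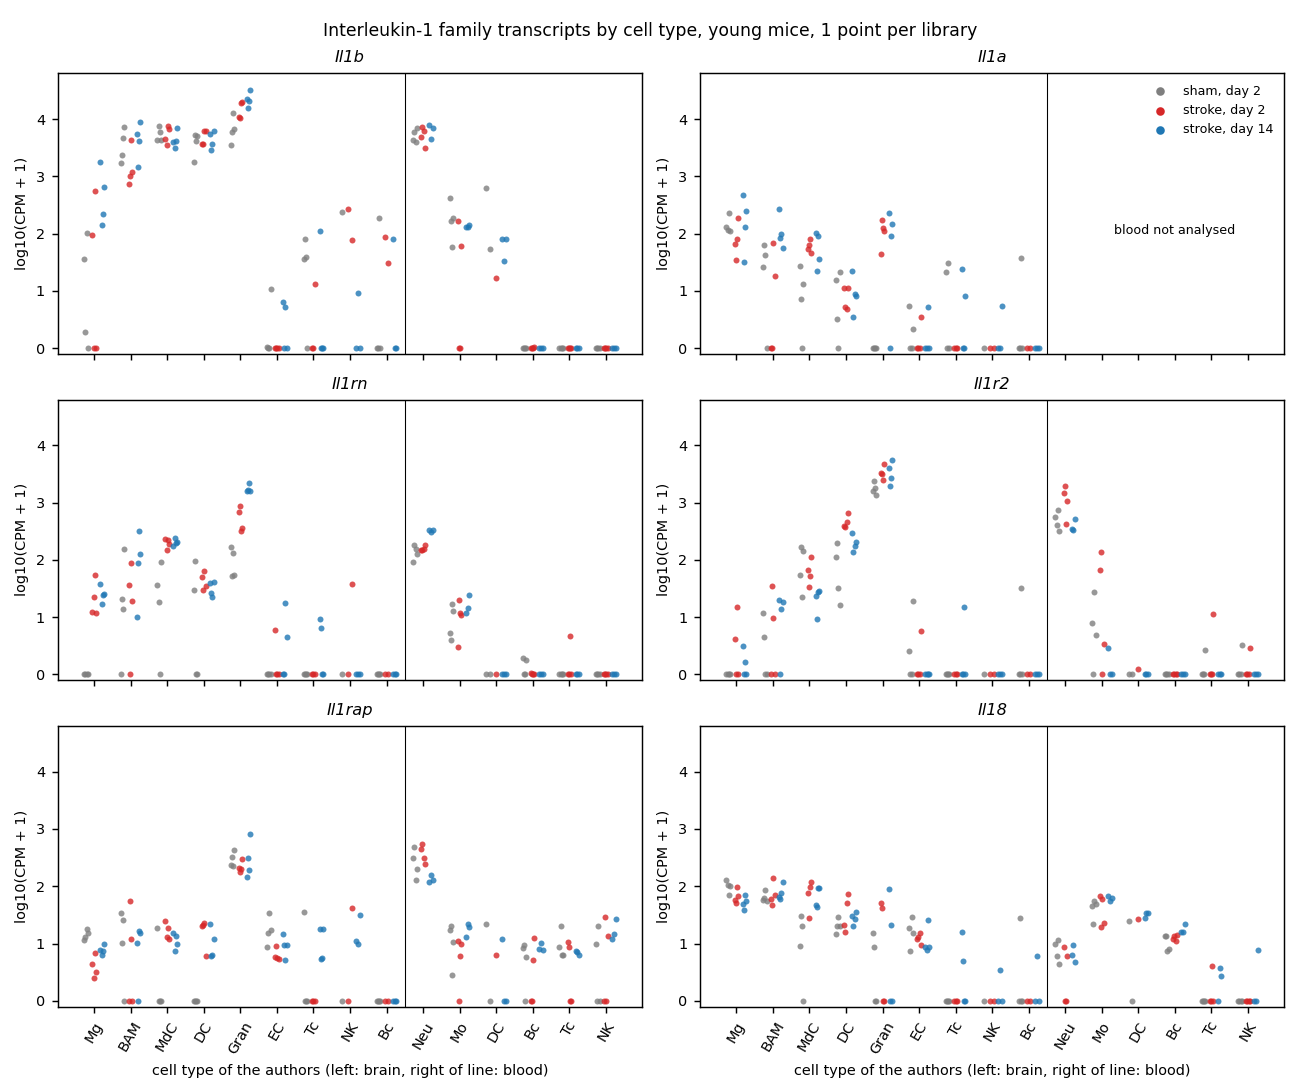
Each point is 1 young library's level of 1 gene in 1 annotated type, on an axis of log10(CPM + 1); grey is sham day 2, red stroke day 2 and blue stroke day 14, and the line in each panel separates brain types (left) from blood types (right). Il1b, Il1rn, Il1r2 and Il1rap are highest in granulocytes and neutrophils, Il1a in microglia, and Il18 in microglia, border macrophages and monocytes.

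The cells that carried most of each gene's counts changed between groups, together with the mix of sorted cells. In young sham brain, microglia were 72.2% of the cells and held 96.6% of the Il1a counts and 91.1% of the Il18 counts, while granulocytes were 3.47% of the cells and held 92.2% of the Il1r2 counts and 38.0% of the Il1b counts. At day 2 after stroke, monocyte-derived cells were 49.9% of the cells and held on average 83.4% of the Il1b, 88.1% of the Il1rn, 64.7% of the Il18 and 63.3% of the Il1a counts. The last 2 shares varied widely between libraries, from 48.9% to 88.0% for Il18 and from 13.7% to 94.2% for Il1a. Microglia held 0.794% to 83.2% of the Il1a counts in these libraries. At day 14 monocyte-derived cells held 48.8% of the Il1b and 59.0% of the Il1rn counts. Il1r2 counts came from granulocytes (47.1%, 25.3% to 73.9% per library) and DC (44.2%, 21.6% to 68.3%). In blood, neutrophils held 97.3%, 99.7% and 96.8% of the Il1b counts in sham, day 2 and day 14. These shares depend on the sort, and a gene's total in a library does not separate fewer cells from less RNA per cell.

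In brain granulocytes, the antagonist Il1rn rose after stroke at both times, and Il1b was higher at day 14. Il1rn was at 167, 51.1, 129 and 53.0 CPM in sham libraries 1 to 4, at 673, 883, 317 and 358 CPM at day 2, and at 1613, 1665, 2242 and 1617 CPM at day 14. The 3 groups did not overlap. Of 4 members with enough counts to test, only Il1rn was called at day 2 (log2 fold change 2.20 ± 0.46 SE, edgeR adjusted p = 0.00538), where 8.35% of all genes tested in these cells were called. At day 14, Il1rn was 3.79 ± 0.45 above sham on the log2 scale (edgeR adjusted p = 9.25e-06), and 2 of the 4 members were called against 26.1% of all genes. Between the times, Il1rn rose by 1.59 ± 0.41 (edgeR adjusted p = 0.0285), the only member called against 4.23% of all genes. That last call was lost without stroke day 14 library 3 or without stroke day 2 library 3 or 4, with adjusted p from 0.0624 to 0.115. With no filter on low counts, Il1rn was not called at day 2 (adjusted p = 0.130) or between the times (adjusted p = 0.269).

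Il1b in granulocytes was at 3542, 5857, 12553 and 6726 CPM in the 4 sham libraries, at 10856, 10253, 18914 and 19851 CPM at day 2, and at 22610.4, 15385, 20559 and 32649.6 CPM at day 14. Sham library 3 lay within the day 2 range, and no sham library reached the day 14 range. The day 14 difference from sham was 1.33 ± 0.38 (edgeR adjusted p = 0.0157). It was lost without sham library 1, 2 or 4 or day 14 library 4 (adjusted p 0.0578 to 0.0734), and with no filter on low counts (adjusted p = 0.468). At day 2 the difference was 0.92 ± 0.38 (edgeR adjusted p = 0.166).

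The receptors of granulocytes were not called between young groups. The decoy receptor Il1r2 was at 1570.3, 2343, 1780.0 and 1357 CPM in sham, at 3233, 3196, 2516 and 4703 CPM at day 2, and at 3986, 1976, 2687 and 5497 CPM at day 14. All day 2 libraries lay above all sham libraries, and the difference of 0.76 ± 0.37 did not pass the test (edgeR adjusted p = 0.230). Il1rap ranged over 226 to 427 CPM in sham, 179 to 299 CPM at day 2 and 142 to 824 CPM at day 14, with overlapping groups. Il1a and Il18 did not pass the filter on low counts in these cells. Il1a was at 0 in all 4 sham libraries, at 43.5, 174, 123 and 112 CPM at day 2, and at 229.8, 0, 91.4 and 148 CPM at day 14. Il18 was at or below 89.5 CPM in each of the 12 libraries and at 0 in 6 of them.

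The granulocytes themselves differed between the groups in other genes. Summed CPM of the 6 neutrophil markers ran from 224789 to 294347 in sham, from 112679 to 205748 at day 2 and from 54235.6 to 70662.6 at day 14, with none of the 6 at 0. The part of this shift in the Il1rn and Il1b results was not tested. Granulocytes numbered 83 to 169 per sham library, 53 to 148 at day 2 and 29 to 153 at day 14.

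Blood neutrophils showed a smaller Il1rn rise, seen at day 14, and lower Il1rap. Il1rn was at 90.4, 178, 155 and 126 CPM in sham libraries 1 to 4, at 148, 149.6, 152 and 179 CPM at day 2, and at 335, 306 and 327 CPM in day 14 libraries 1 to 3. The day 14 libraries lay above all others, by 0.92 ± 0.21 on the log2 scale against sham (edgeR adjusted p = 0.0183) and by 0.70 ± 0.21 against day 2 (edgeR adjusted p = 0.0687). At day 14, 2 of 4 members tested were called against sham, 1 in each direction, where 5.99% of all genes tested in neutrophils were called. The Il1rn call was lost without sham library 1 or any 1 of the 3 day 14 libraries (adjusted p 0.0600 to 0.0753). At day 2, neither edgeR nor DESeq2 called any of 8 member and type pairs tested in blood. Of all genes, 0% were called in each of neutrophils, monocytes and B cells. An unadjusted edgeR p under 0.05 was found for 2 of 8 pairs. Over all genes it was found for 209 of 4944 in neutrophils, 189 of 6706 in monocytes and 171 of 8762 in B cells.

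Neutrophil receptor transcripts were lower at day 14 than at day 2. Il1rap was at 315, 479, 129.6 and 196 CPM in sham, 454, 553, 309 and 247 CPM at day 2, and 116, 158 and 129.7 CPM at day 14. It fell by 1.81 ± 0.37 from day 2 to day 14 (edgeR adjusted p = 0.0122), with no overlap, and this call was lost without day 14 library 1 or 3 (adjusted p = 0.0696 and 0.0668). Against sham, with overlapping libraries, the day 14 difference was -1.35 ± 0.37 (edgeR adjusted p = 0.0412), lost without sham library 1 or 2 or any 1 of the 3 day 14 libraries (adjusted p 0.0685 to 0.167) and without TMM scaling (adjusted p = 0.105). Il1r2 was at 568, 401, 731 and 319 CPM in sham, 1444, 1946, 427 and 1047 CPM at day 2, and 349, 331 and 525 CPM at day 14. Day 2 library 3 was low and lay within the other groups. Il1r2 fell by 1.94 ± 0.42 from day 2 to day 14 (edgeR adjusted p = 0.0149), a call lost without any 1 of the 3 day 14 libraries or day 2 library 1 (adjusted p 0.0506 to 0.0818). These 2 of 4 members compare with 4.69% of all genes called between the times. Il1b in neutrophils ran from 3982 to 6944 CPM in sham, 3104 to 7285 CPM at day 2 and 4522 to 7961 CPM at day 14, overlapping throughout, and Il18 did not pass the filter there. The summed neutrophil markers of these cells also moved, from 198112 to 304369 CPM in sham to 111717 to 190797 CPM at day 14, and their part in these results was not tested.

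**Figure D2:**
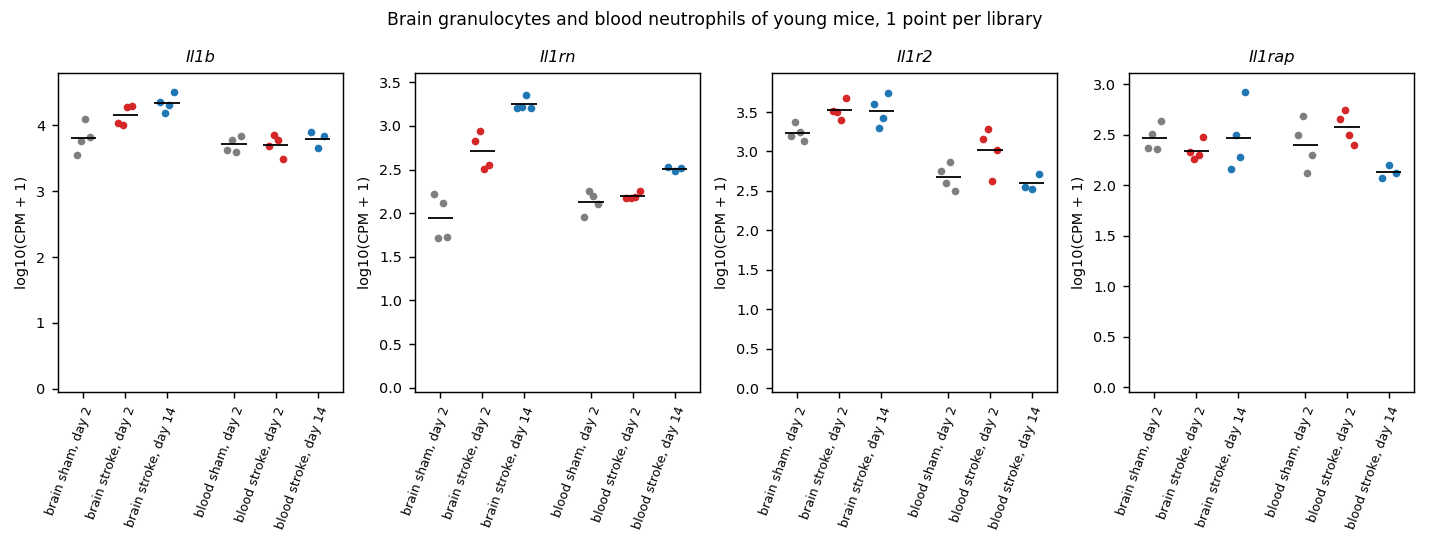
Points are libraries of brain granulocytes and blood neutrophils of young mice, black bars are group means of log10(CPM + 1), and colours are as in the plot of levels by cell type. Il1rn in young brain granulocytes separates the 3 groups, from 51.1 to 167 CPM in sham to 1613 to 2242 CPM at day 14, while blood neutrophils stay between 90.4 and 335 CPM.

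Brain granulocytes were set against blood neutrophils of the same groups. The tissue and its preparation (papain digestion and a sort, or red cell lysis) cannot be told apart in this comparison, and brain and blood libraries are not known to share mice. At stroke day 2, brain was higher for Il1rn (1.61 ± 0.31, edgeR adjusted p = 0.00255), Il1b (1.53 ± 0.41, edgeR adjusted p = 0.0267) and Il1r2 (1.49 ± 0.42, edgeR adjusted p = 0.0367). These 3 of 4 members compare with 9.16% of all genes called. The Il1b call was lost without blood library 4 or brain library 3 or 4, and the Il1r2 call in 5 of 8 fits that left out 1 library. With no filter on low counts, all 3 calls were lost (edgeR adjusted p = 0.192 for Il1rn). In a fit of all 6 groups, added after the data were seen, sham brain and sham blood differed in Il1r2 (1.83 ± 0.44, edgeR adjusted p = 0.00827), where 5.08% of all genes were called, a call lost without brain sham library 2 (adjusted p = 0.0569). For sham Il1rn the difference was -0.44 ± 0.37 (edgeR adjusted p = 0.586). At day 14, brain was higher for Il1b (1.76 ± 0.47), Il1r2 (3.11 ± 0.51), Il1rn (2.40 ± 0.32) and Il1rap (1.41 ± 0.49, edgeR adjusted p = 0.0399), all 4 members tested, where 21.3% of all genes were called. The Il1b call was lost without blood day 14 library 2 (adjusted p = 0.0779) and with no filter on low counts (adjusted p = 0.175). The Il1rap call was lost in 4 of 7 fits that left out 1 library, and its adjusted p was 0.697 without brain day 14 library 4. The change from sham itself differed between the tissues for Il1rn at day 14, by 2.84 ± 0.47 (edgeR adjusted p = 0.000310, 1 member called against 3.4% of all genes), and was called in each of 15 fits that left out 1 library. At day 2 the difference of the Il1rn changes was 1.90 ± 0.48 (edgeR adjusted p = 0.0597), with no member called against 0.475% of all genes. The fit of all groups called the same 3 of 4 members at stroke day 2 as the fit of day 2 alone, where 12.4% of all genes were called.

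In monocyte-derived cells of young brain, Il1rn rose after stroke while Il1b was high in every group. Il1rn was at 35.6, 17.3, 0 and 91.6 CPM in sham libraries 1 to 4, at 228, 147, 219.9 and 187 CPM at day 2, and at 175, 239, 198 and 207 CPM at day 14. Each stroke library lay above each sham library. The log2 difference from sham was 3.10 ± 0.46 at day 2 (edgeR adjusted p = 0.00107) and 3.13 ± 0.46 at day 14 (edgeR adjusted p = 0.00104). Il1rn was the 1 of 6 members called at each time, where 6.71% of all genes were called at day 2 and 5.15% at day 14, and both calls held in every alternative run. Between the times the difference was 0.03 ± 0.28 (edgeR adjusted p = 1.000), no member was called, and 1.79% of all genes were.

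The ligands of these cells moved less, or with too much spread for a call. Il1b was at 4309.9, 7566, 5969 and 4282 CPM in sham, at 4546, 3509, 7676 and 6778 CPM at day 2, and at 4042, 3121, 4170.2 and 6843 CPM at day 14. The groups overlapped, and the differences from sham were 0.52 ± 0.38 (edgeR adjusted p = 0.504) and 0.15 ± 0.38 (edgeR adjusted p = 0.919). Il18 was at 8.16, 29.4, 19.5 and 0 CPM in sham, 74.9, 26.7, 97.3 and 116 CPM at day 2, and 46.6, 43.1, 93.7 and 91.0 CPM at day 14. Only day 2 library 2 lay within the sham range, and the differences of 2.60 ± 0.76 (edgeR adjusted p = 0.0527) and 2.32 ± 0.77 (edgeR adjusted p = 0.103) missed the threshold. Il1a was at 26.6, 6.33, 0 and 12.1 CPM in sham, 51.7, 62.5, 79.6 and 45.4 CPM at day 2, and 103, 21.5, 89.5 and 35.7 CPM at day 14. Its differences were 2.70 ± 0.83 (edgeR adjusted p = 0.0684) and 2.76 ± 0.84 (edgeR adjusted p = 0.0725). Il1r2 reached 169 CPM in sham, the highest of the 12 libraries. It ran from 32.6 to 111 CPM at day 2 and from 8.34 to 27.9 CPM at day 14. These 2 groups did not overlap, and the difference between them of -1.68 ± 0.50 was not called (edgeR adjusted p = 0.125). With the replicate block it was, at -1.51 ± 0.35 (edgeR adjusted p = 0.00558). Il1rap was at or below 23.9 CPM in all 12 libraries. Sham libraries held 43 to 99 of these cells, against 1468 to 2180 at day 2 and 489 to 857 at day 14, which limits how well low sham levels are known. Summed neutrophil markers in these cells were 276 to 3716 CPM in sham, 180 to 349 CPM at day 2 and 73 to 167 CPM at day 14, and their part in the results was not tested.

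Monocytes of blood, by contrast, were low in Il1b and Il1rn. Il1b was at 423, 164, 57.2 and 183 CPM in sham, between 0 and 163 CPM at day 2, and at 127, 128 and 139.8 CPM at day 14, with overlapping groups. Il1rn was at or below 23.3 CPM in all 11 libraries and did not pass the filter for a test within blood. Il18 was between 18.2 and 66.8 CPM, and no member of 3 tested was called in monocytes, where 0%, 0.254% and 0.537% of all genes were called at day 2, at day 14 and between the times. In B cells of blood only Il18 was tested, at 6.38 to 12.5 CPM in sham, 9.96 to 13.1 CPM at day 2 and 15.1 to 20.5 CPM at day 14. The day 14 libraries lay above all others, and the difference of 0.84 ± 0.35 from sham was not called (edgeR adjusted p = 1.000), nor was that from day 2 (0.56 ± 0.37, edgeR adjusted p = 1.000), where 0.0114% of all genes were called at day 14 against sham and 0.0114% between the times. Against blood monocytes at stroke day 2, brain monocyte-derived cells were higher by 6.73 ± 0.97 in Il1b (edgeR adjusted p = 0.000323) and by 4.89 ± 0.41 in Il1rn (edgeR adjusted p = 6.41e-06). These were 2 of 5 members tested, where 24.7% of all genes were called, and both held in every alternative run. In the fit of all groups, Il1b was also higher in sham brain, by 4.57 ± 0.72, where 2.45% of all genes were called, and the sham difference in Il1rn was 1.73 ± 0.75 (edgeR adjusted p = 0.289). The change in Il1rn from sham to day 2 was larger in brain by 3.14 ± 0.84 (edgeR adjusted p = 0.0381, 1 member called against 3.76% of all genes). That call was lost in 10 of 16 fits that left out 1 library. At day 14, brain was higher in 3 of 5 members, Il1b (5.31), Il1rn (3.89 ± 0.44) and Il1r2 (5.04, edgeR adjusted p = 0.0310), where 16.4% of all genes were called, and the Il1r2 call was lost in 3 fits that left out 1 library. The same fit called the same 2 of 5 members at day 2 against 26.4% of all genes, and the day 14 change differed in no member against 1.97%.

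**Figure D3:**
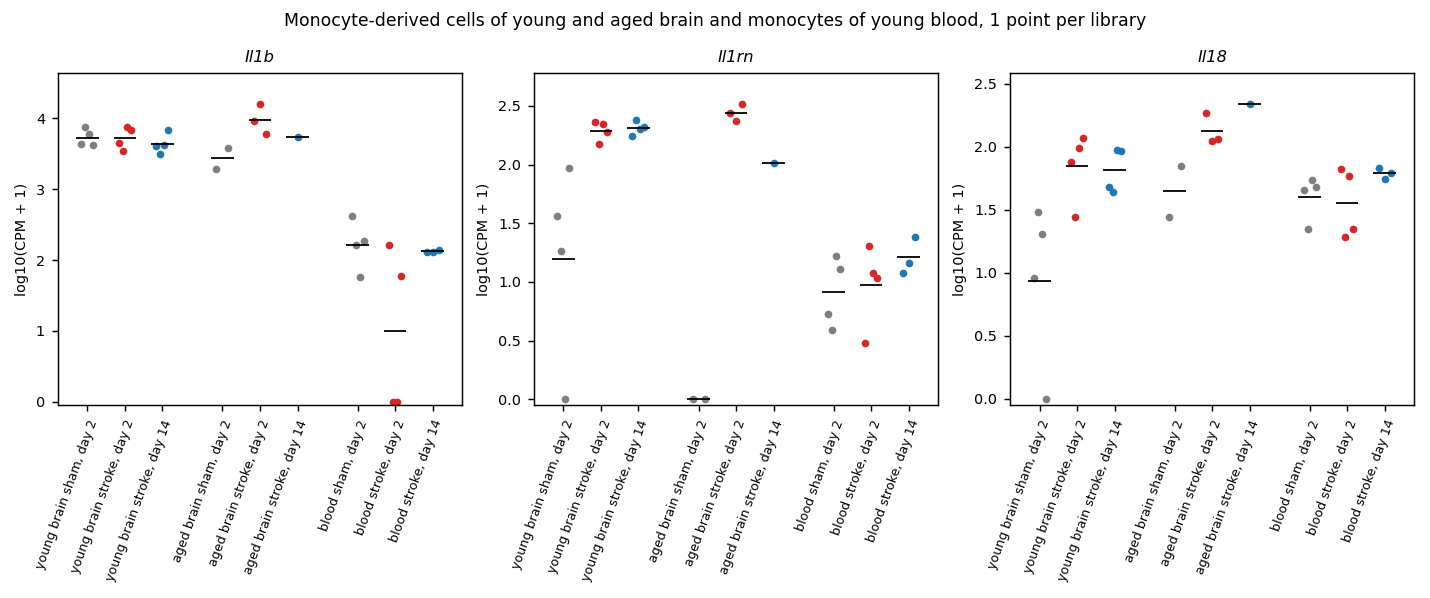
Points are libraries of monocyte-derived cells of young and aged brain and of monocytes of young blood, with black bars at group means of log10(CPM + 1) and the colours of the plot of levels by cell type. In young brain Il1b stays between 3121 and 7676 CPM in all groups, while Il1rn moves from 0 to 91.6 CPM in sham to 147 to 239 CPM after stroke.

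Microglia gained Il1rn after stroke and had lower Il1rap at day 2. No Il1rn count was found in sham microglia, among 5597560 counts of the 4 libraries. Il1rn was at 11.2, 21.1, 53.3 and 11 CPM in day 2 libraries 1 to 4 and at 37.5, 16.0, 23.5 and 24.8 CPM at day 14. With 3 counts over the sham group as the limit that a count of 0 allows, the pooled level was at least 23.6-fold higher at day 2 (edgeR adjusted p = 8.44e-05) and at least 51.1-fold higher at day 14 (edgeR adjusted p = 1.62e-05). Both calls held in every alternative run, and without stroke day 2 library 3, the library that stood apart, the day 2 adjusted p was 0.000251. With no sham count, Il1rn entered these fits only through the stroke libraries, so the p-values add no separate support to the levels. The fold limits cover counting error only. They hold only if a listed 0 stands for 0 molecules, and the deposited counts were not whole, with no step named for why. Endothelial cells of the same libraries had Il1rn between 0 and 4.92 CPM at day 2, under every microglia library, and between 0 and 16.4 CPM at day 14, which reached the lowest microglia library.

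Il1rap in microglia was at 10.7, 12.2, 17.2 and 14.0 CPM in sham, at 3.39, 1.52, 5.78 and 2.14 CPM at day 2, and at 6.64, 5.19, 6.47 and 8.68 CPM at day 14. Sham lay above both stroke groups without overlap. The day 2 level fell by 2.32 ± 0.42 on the log2 scale (edgeR adjusted p = 0.0015), with a difference of -2.31 without library 3 (edgeR adjusted p = 0.00311). At day 14 the difference from sham was -0.56 ± 0.33 (edgeR adjusted p = 0.255). Between the times Il1rap rose by 1.76 ± 0.43 (edgeR adjusted p = 0.0258). That call was lost in 6 of 8 fits that left out 1 library, those without day 14 library 1, 3 or 4 or day 2 library 1, 2 or 4 (adjusted p 0.0537 to 0.127). It was also lost in DESeq2 (adjusted p = 0.0685), with no filter on low counts, and with the replicate block (edgeR, 1.74 ± 0.51, adjusted p = 0.0657). Without day 2 library 3 the difference was 1.73 (adjusted p = 0.0371). In all, 2 of 5 members tested in microglia were called at day 2, where 31.4% of all genes were called, 1 of 5 at day 14 (15.2%) and 1 of 5 between the times (6.93%). Il1rn, with no sham count, could pass the count filter only through the stroke libraries. It is among the members called at day 2 and at day 14, so those counts cannot be set plainly against the shares of all genes. Other markers moved in the same cells. Summed border macrophage markers of microglia were 30.6 to 38.7 CPM in sham, 14.1 to 164 CPM at day 2 and 65.0 to 76.4 CPM at day 14, and summed monocyte markers 0 to 26.7, 0 to 896 and 5.06 to 102 CPM. Their part in the Il1rn and Il1rap results was not tested. The groups also sat in different sub-types of the authors' annotation. Sham microglia were mostly Mg1 (53.0% ± 13.9, SD, n = 4) and Mg2 (37.8% ± 8.52), day 2 microglia Mg4 (52.0% ± 29.8) and Mg5 (26.4% ± 16.7), and day 14 microglia Mg3 (69.6% ± 7.45). Over the day 2 libraries, Mg4 ran from 33.9% to 96.6% and Mg5 from 1.72% to 38.3%. These shares include day 2 library 3, the library that stood apart. Sham Mg4 and Mg5 held 1.12 and 0.947 Il1rap counts, too few to compare either gene within these sub-types.

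The ligands of microglia spread widely between libraries of 1 group, and none was called with the settings used throughout. Il1b was at 34.5, 0.936, 101 and 0 CPM in sham, at 92.7, 0, 561 and 0 CPM at day 2, and at 1769, 143, 222 and 657 CPM at day 14. All day 14 libraries lay above all sham libraries, and the difference of 4.88 ± 1.60 missed the threshold (edgeR adjusted p = 0.0546). It passed in 7 of 8 other ways of fitting all libraries (adjusted p 0.00244 to 0.0479) and not in DESeq2 (adjusted p = 0.108). Among the 7 were the fit that left out cells with S100a8 or S100a9 counts, both neutrophil genes (adjusted p = 0.0381), and the fit with the replicate block (6.76, adjusted p = 0.00466). Deviations of same-numbered sham and day 14 microglia correlated from -0.390 to 0.563, which gives no clear ground for the block against sham. In fits that left out 1 library it ran from 3.85 to 6.37, and it passed in 2 of 8, without day 14 library 2 (adjusted p = 0.0479) or 4 (adjusted p = 0.0486). Between day 2 and day 14 the difference was 3.93 ± 1.76 (edgeR adjusted p = 0.208), and with the replicate block 5.41 ± 1.32 (edgeR adjusted p = 0.0325). Without the block it ran from 2.93 to 4.89 when 1 library was left out, and was 4.81 without day 2 library 3, the library that stood apart (adjusted p = 0.138). Summed neutrophil markers of microglia were 136 to 224 CPM at day 14 and 176 to 593 CPM in sham, with S100a8 at or below 7.41 CPM in each day 14 library. Day 14 library 1, the highest for Il1b, also had the highest neutrophil sum of that group (224 CPM, 1 of the 6 markers at 0) and the highest monocyte sum (102 CPM), and their part in the Il1b level was not tested. At day 2 the 4 neutrophil sums were 139, 156, 14.2 and 72.9 CPM, with 2, 5, 4 and 5 of the 6 markers at 0. T cells of young brain had Il1b between 0 and 111 CPM, B cells between 0 and 189 CPM and NK cells between 0 and 271 CPM. The NK range, over all groups, reached above day 14 microglia libraries 2 and 3. Il1a was at 128, 116, 229 and 109 CPM in sham, 64.9, 33.1, 80.2 and 184 CPM at day 2, and 476, 31.0, 128 and 249 CPM at day 14, overlapping in every pair of groups. Il18 ran from 69.7 to 129.9 CPM in sham, from 50.8 to 95.4 CPM at day 2 and from 38.1 to 69.8 CPM at day 14, overlapping between the groups. Il1r2 did not pass the filter. Summed microglia markers were 16974.9 to 23755.4 CPM in sham and 12871.7 to 16183.5 CPM at day 14, and the part of that difference in these results was not tested.

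**Figure D4:**
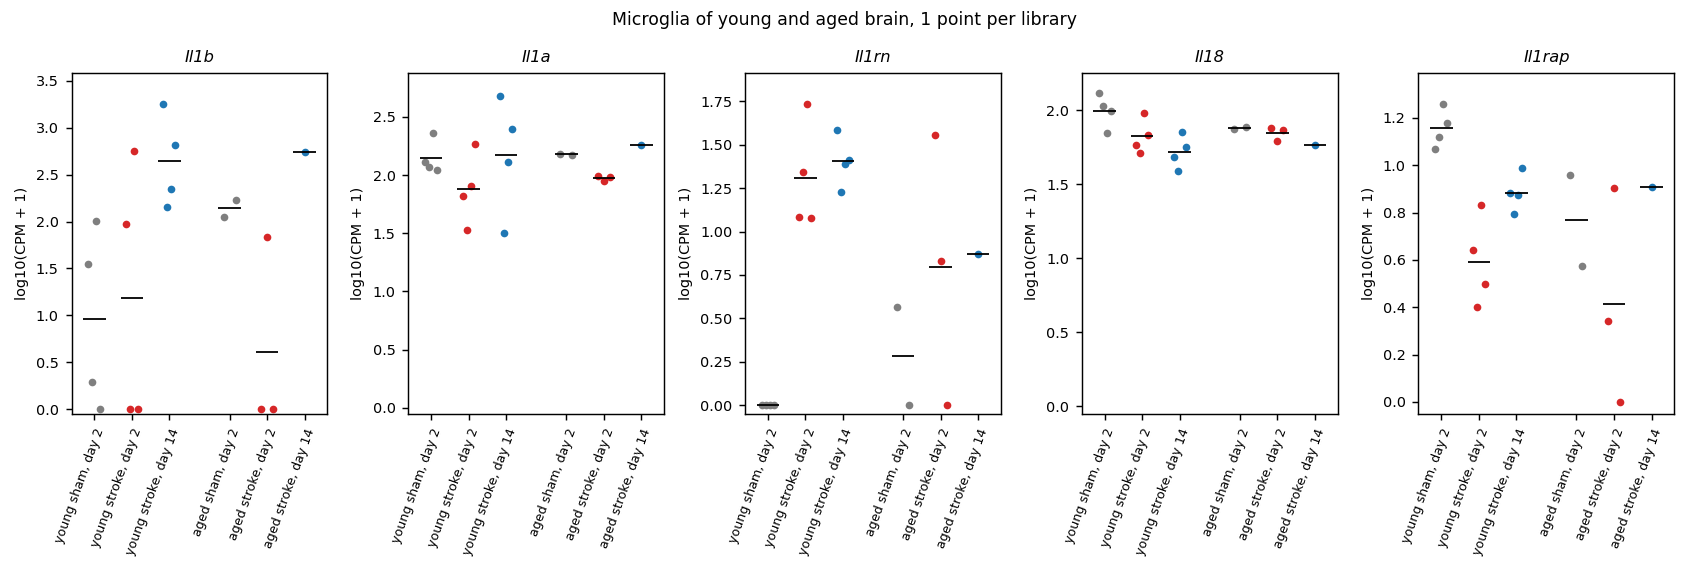
Points are libraries of young and aged microglia, with black bars at group means of log10(CPM + 1) and the colours of the plot of levels by cell type. Young sham libraries have no Il1rn counts while all 8 young stroke libraries do, Il1rap in young mice is lowest at day 2, and Il1b spreads from 143 to 1769 CPM at day 14.

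DC of the brain had a higher level of the decoy receptor at day 2. Il1r2 was at 114, 199, 31.0 and 15.5 CPM in sham, at 387, 381, 467 and 646 CPM at day 2, and at 291, 134, 173 and 207 CPM at day 14. Day 2 lay above both other groups without overlap, and its difference from sham was 2.12 ± 0.46 (edgeR adjusted p = 0.0433), the 1 call among 3 members tested, where 1.01% of all genes were called. It was lost without sham library 1, 3 or 4 or day 2 library 1, 3 or 4 (adjusted p 0.0571 to 0.120). From day 2 to day 14 the difference was -1.21 ± 0.38 (edgeR adjusted p = 0.166), with no member called against 0.893% of all genes, and at day 14 against sham no member was called against 1.53%. The groups also sat in different sub-types, with DC3 at 10.8% of sham and 36.2% of day 2 DC, and DC7 at 26.4% and 2.10%. Pooled Il1r2 of DC1 was at 347, 372 and 398 CPM in sham, day 2 and day 14, with 7.78 counts in sham. That of DC4 was at 0, 110 and 125 CPM, with 5.00 counts at day 2. The part of this make-up in the Il1r2 call was not tested. Il1b in DC ran from 1787 to 6259 CPM over all 12 libraries with overlapping groups. Border macrophages had Il1b at 1733, 2311, 4734 and 7328 CPM in sham, 735, 1004, 4384 and 1166 CPM at day 2, and 5585, 1476, 4069 and 8941 CPM at day 14. Il1b was the 1 member tested there and was not called (edgeR adjusted p = 0.275 at day 2), where 2.67%, 0.0762% and 0.838% of all genes were called in the 3 comparisons. Their other 5 members did not pass the filter, nor did any member in endothelial, T, NK or B cells of young brain. Endothelial Il1b was at or below 9.79 CPM in every young library.

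In aged brain, 6 of 16 member and type pairs were called higher at day 2 after stroke, in monocyte-derived cells and granulocytes. Each call depended on both sham libraries. Among them, Il1rn and Il1a in monocyte-derived cells and Il1a in granulocytes were at 0 in both sham libraries. In aged monocyte-derived cells, Il1rn was at 0 in the female and the male sham library and at 275, 329.9 and 233 CPM in the day 2 stroke libraries of female 1, female 2 and the male, at least 6.25-fold higher as pooled counts (edgeR adjusted p = 0.00349). Il1b was at 1954 CPM in the female and 3812 CPM in the male sham library, and at 9122, 6109.8 and 16115 CPM in the same 3 stroke libraries, higher by 2.50 ± 0.58 (edgeR adjusted p = 0.0310). Il1a was at 0 in both sham libraries and at 87.7, 226 and 367 CPM after stroke, at least 4.57-fold higher (edgeR adjusted p = 0.0228). These 3 of 6 members were called where 2.56% of all genes were. Il1rn and Il1a, at 0 in both sham libraries, could pass the count filter only through the other groups of the fit. The 3 of 6 therefore cannot be set plainly against the share of all genes. The fold limits of Il1rn and Il1a hold only if a listed 0 stands for 0 molecules. The male stroke library was highest for Il1b and Il1a, and without it the adjusted p for Il1b was 0.0727. Without TMM scaling, neither Il1b (adjusted p = 0.0730) nor Il1a (adjusted p = 0.0604) was called. The neutrophil gene S100a8 in these cells ran from 278 to 380 CPM in aged sham and from 189 to 3264 CPM at stroke day 2, with a stroke median of 289 CPM. S100a9 ran from 75.9 to 276 CPM and from 0 to 1755 CPM, with a stroke median of 20.2 CPM. Their part in these calls was not tested.

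In aged granulocytes, 3 of 5 members were called where 3.14% of all genes were. Il1rn was at 64.8 and 60.9 CPM in the female and male sham libraries and at 689, 514 and 362 CPM in stroke female 1, female 2 and the male (2.76 ± 0.72, edgeR adjusted p = 0.0440). Il1r2 was at 973 and 608 CPM in sham and at 3263, 2575 and 3326 CPM after stroke (1.73 ± 0.46, edgeR adjusted p = 0.0449). Il1a was at 0 in both sham libraries and at 572, 277 and 173 CPM after stroke, at least 7.02-fold higher (edgeR adjusted p = 0.0310). Since Il1a was also at 0 in young sham granulocytes, it could pass the count filter only through stroke libraries. The 3 of 5 includes it and cannot be set plainly against the share of all genes. Its fold limit holds only if a listed 0 stands for 0 molecules. Il1b was at 8506 and 5197 CPM in sham and at 38809.8, 16237 and 19436 CPM after stroke, without overlap, and was not called (1.63 ± 0.55, edgeR adjusted p = 0.117). All 6 calls in aged cells were lost without either the female or the male sham library, with adjusted p from 0.0538 to 0.438. The Il1rn call in granulocytes was also lost without stroke female 1 (adjusted p = 0.148) or female 2 (adjusted p = 0.0539) and in DESeq2 (adjusted p = 0.0599), and the Il1r2 call without stroke female 1 (adjusted p = 0.108) or the male (adjusted p = 0.0620) and with sex as a covariate (adjusted p = 0.0521). Aged granulocytes numbered 31 to 45 per sham library and 33 to 101 per stroke library. The aged groups also sat in different sub-types. Granulocytes were 84.3% Gran1 and 2.72% Gran2 in sham, and 39.8% Gran1 and 55.8% Gran2 at stroke day 2. Monocyte-derived cells were 94.6% MdC3 in sham, and 30.8% MdC1, 34.3% MdC2 and 13.2% MdC3 at stroke day 2. The part of this make-up in the 6 calls was not tested.

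Aged microglia gave no call among 5 members, where 2.3% of all genes were called. Il1rn was at 2.66 CPM in the female and 0 in the male sham library, and at 35.1, 0 and 5.73 CPM in stroke female 1, female 2 and the male. No difference of the stroke change between ages was called for any of 16 member and type pairs, by edgeR or DESeq2. Of all genes, 0% were called in each of microglia, monocyte-derived cells and granulocytes. An unadjusted edgeR p under 0.05 was found for 5 of the 16 pairs. Over all genes it was found for 623 of 11096 in microglia, 473 of 8167 in monocyte-derived cells and 61 of 1401 in granulocytes. With 2 aged sham libraries, the lack of a call does not show that the changes were equal. Aged and young stroke libraries at day 2 likewise gave no call among 19 pairs, by edgeR or DESeq2. The share of all genes called was 0% in each type except DC (0.0411%). Over all genes, an unadjusted edgeR p under 0.05 was found for 643 of 11096 in microglia and 154 of 8167 in monocyte-derived cells. It was found for 109 of 1401 in granulocytes, 116 of 1583 in border macrophages and 99 of 2435 in DC. Among the 19 pairs it was found for 3. The largest of these was Il1a in monocyte-derived cells, singled out after its values were seen, at 87.7 to 367 CPM in aged and 45.4 to 79.6 CPM in young stroke libraries (1.94 ± 0.42, edgeR adjusted p = 0.307). The single aged day 14 library had Il1b at 5384 CPM in monocyte-derived cells, 21489 CPM in granulocytes and 553 CPM in microglia, with no replicate.

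The balance of antagonist to ligand was followed as the log2 ratio of Il1rn to Il1b counts within a library and cell type. In monocyte-derived cells the mean ratio was -7.26 ± 1.65 (SD, n = 4) in sham, -4.80 ± 0.42 at day 2 and -4.42 ± 0.55 at day 14. The groups did not overlap between sham and stroke, and the differences of 2.46 and 2.84 each had the smallest p that 4 against 4 libraries allow (exact two-sided permutation p = 0.0286). Adjusted over the 18 comparisons made, none passed, with a lowest adjusted p of 0.171. In microglia the day 14 ratio differed from day 2 by -5.32 (exact permutation p = 0.0286, adjusted p = 0.171), where both day 2 libraries with no Il1b count gave the high values. Without day 2 library 3 this difference was -6.71, at the smallest p of 4 against 3 libraries (exact permutation p = 0.0571). In brain granulocytes, added after the data were seen, the mean ratio was -6.08 ± 1.17 in sham and -3.62 ± 0.55 at day 14 (exact permutation p = 0.0286, adjusted p = 0.15 over 21 comparisons). In blood neutrophils it was -5.27 ± 0.49 in sham and -4.28 ± 0.36 at day 14, a difference of 1.00 at the smallest p of 4 against 3 libraries (exact permutation p = 0.0571).

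Within a parent type, the authors' finer sub-types differed in these genes, as pooled counts with no test. The sub-types come from clustering that could have used the same genes, so their levels are a description. Most sham granulocytes were in Gran1 (81.7% ± 6.95, SD, n = 4), whose pooled Il1b was 8532 CPM in sham and 9081 CPM at day 2 and whose Il1rn was 90.7 and 165 CPM. Gran1 made up 32.9% ± 12.5 of granulocytes at day 2 and 5.04% ± 1.58 at day 14. Gran2 had Il1b at 28296 CPM at day 2 and 29572 CPM at day 14, and Il1rn at 563 and 1003 CPM. Gran3 had higher Il1rn than Gran2 at day 14, at 3928 CPM, with Il1b at 15769 CPM. Pooled Il1rn of Gran1 rested on 19.0 counts in sham and 14.9 at day 2, and that of Gran2 on 42.3 at day 2 and 97.7 at day 14. The group differences in granulocytes came with a different make-up of sub-types, whose part in the Il1b and Il1rn results was not tested.

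In blood, sub-type Neu3 made up 10.1% ± 14.8 (SD, n = 4) of neutrophils in sham, 5.79% ± 4.02 (n = 4) at day 2 and 73.8% ± 9.20 (n = 3) at day 14. Sham library 4, at 32.2%, set much of the sham mean, which was 2.72% over the other 3 libraries. Its pooled Il1rn was 87.6, 216 and 339 CPM in the 3 groups, and its Il1rap 153, 176 and 154 CPM. Pooled Il1rap of Neu1 was at 460, 588 and 447 CPM in sham, day 2 and day 14, that of Neu2 at 206, 164 and 49.4 CPM and that of Neu6 at 110, 32.9 and 11.3 CPM. The day 14 values of Neu2 and Neu6 rest on 3.93 and 1.96 counts, too few for a comparison. In Neu5 it was 230, 340 and 173 CPM. Il1r2 was high at day 2 within several sub-types, at 628, 1495 and 532 CPM in Neu1, at 547, 1190 and 237 CPM in Neu2, at 442, 1038 and 403 CPM in Neu3 and at 648, 1454 and 562 CPM in Neu5. In Neu6 it was 416, 286 and 108 CPM. The make-up of neutrophils differed between the groups, and so did the pooled Il1r2 within Neu1, Neu2, Neu3 and Neu5.

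Monocyte-derived sub-type MdC3 was 75.7% of these cells in sham and 14.7% at day 2, when MdC1 (31.5%) and MdC2 (28.8%) held most, and MdC6 held the most at day 14 (34.0%). MdC3 had no Il1rn count in sham among 164611 counts, and 119.9 CPM at day 2 and 57.9 CPM at day 14. MdC4 had Il1rn at 339 and 336 CPM and MdC2 had Il1b at 9358 CPM at day 2, while MdC6 had Il1b at 1469.8 CPM at day 14. Among microglia, Mg3 was 69.6% of the cells at day 14 and had Il1b at 785 CPM, Il1rn at 29.1 CPM and Il1a at 214 CPM. Mg6 had Il1b at 149 CPM in sham and 2375 CPM at day 14, and Il1a at 367 and 794 CPM. Mg1, 53.0% of sham microglia, had no Il1rn count in sham, nor among 199849 counts at day 2 and 159002 counts at day 14. Border macrophage sub-type BAM2 had Il1b at 7766, 6694 and 8724 CPM in sham, day 2 and day 14, against 495, 307 and 1072 CPM in BAM1. DC3, 36.2% of DC at day 2, had Il1r2 at 718 CPM.

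**Figure D5:**
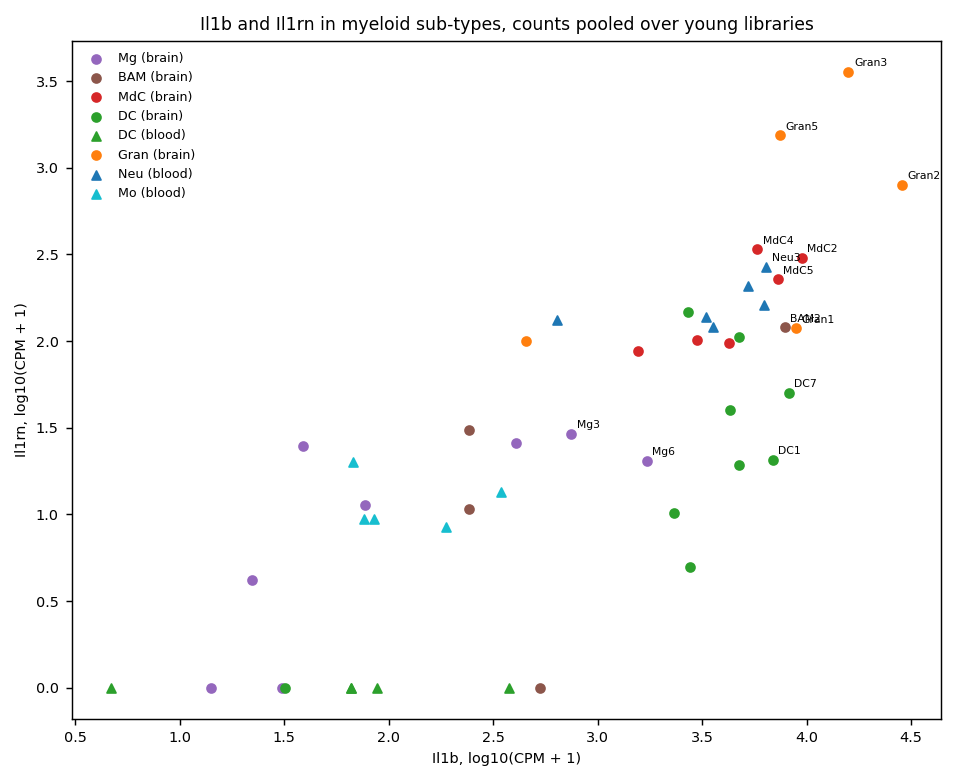
Each mark is 1 sub-type with its counts pooled over all young libraries, Il1b on the x axis and Il1rn on the y axis, both as log10(CPM + 1); circles are brain, triangles blood and colours the parent types. Gran3 has the highest Il1rn (3586 CPM) and Gran2 the highest Il1b (28578.8 CPM), and the microglial sub-types lie toward the lower left.

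Other genes of the pathway were taken from 4 lists (ligands and binding proteins, receptors, adaptors and kinases, inflammasome and processing), 37 genes in all, of which 32 are in the brain tables and 30 in the blood tables. In microglia at day 2, 1 of 22 tested rose and 7 fell, where 31.4% of all genes were called. Pycard, the inflammasome adaptor, rose by 1.33 on the log2 scale. The interleukin-1 receptor kinases Irak1 and Irak2 fell by 1.24 and 1.46, and Tab2, an adaptor further down the same route, fell by 1.34. Gsdmd, whose product forms the pores of inflammatory cell death, fell by 0.79, and Aim2, an inflammasome sensor of DNA, fell by 0.98. Without day 2 library 3, 1 of 23 rose and 5 fell, the same 6 genes that are named here. In that fit, 1604 of all 11084 genes tested rose and 1447 fell. The median over the 22 genes was -0.76, and over all genes tested -0.05. At day 14, 2 of 22 rose and 1 fell, where 15.2% of all genes were called. Pycard rose by 1.03. The other 2, named after their values were seen since both were under a mean of 20 CPM, were Il18bp (3.26), which encodes the binding protein that neutralises interleukin-18, and Il1rl2 (-1.37). Between the times, Irak2 was the 1 of 22 called, where 6.93% of all genes were called. It was higher at day 14 by 1.35 (edgeR adjusted p = 0.00369), and by 1.36 without day 2 library 3 (edgeR adjusted p = 0.00561).

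In monocyte-derived cells, none of 19 pathway genes was called by edgeR at day 2, against 6.71% of all genes. Il18bp was the 1 called at day 14, higher by 4.59 than sham and by 2.42 than day 2, where 5.15% and 1.79% of all genes were called. In granulocytes, Nlrp3, the sensor of the best known inflammasome, was 1 of 3 tested and rose by 1.67 at day 2 (edgeR adjusted p = 0.0259) and by 2.62 at day 14 (edgeR adjusted p = 0.000251), against 8.35% and 26.1% of all genes. In blood neutrophils, Aim2 was higher by 2.45 at day 14 than in sham, and Casp4, an inflammatory caspase, fell by 1.47, of 18 tested, where 5.99% of all genes were called. In aged monocyte-derived cells at day 2, Nlrp3 was the 1 of 19 called (2.73), against 2.56% of all genes. Brain monocyte-derived cells at stroke day 2 were higher than blood monocytes in 3 of 20, among them Nlrp3 (2.10) and Irak2 (1.77), and lower in 5, among them Casp1, the protease that cuts the interleukin-1 beta precursor (-1.35), and Tab2 (-1.45), where 24.7% of all genes were called.

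The genes whose levels were most like those of each member were found by Pearson's r of log2(CPM + 1) over 52 combinations of type and group (28 for Il1a), among 8338 genes (8092 for Il1a). These r are descriptions, since combinations of 1 group share libraries. For Il1b the closest was Rbm47 (0.849), followed by Fth1, Il1rn (0.828), Wfdc17 (0.827) and the chemokine Cxcl2 (0.823). For Il1rn the closest was Nfe2l2 (0.854), and Nlrp3 (0.842) was among the next 4. Il1r2 was closest to Trem1, a receptor of myeloid cells, and Il1a to Tnf, the tumour necrosis factor gene (0.850). Il18 was closest to Tifa (0.848) and Il1rap to Mirt2 (0.783).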

How the data were processed

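The authors deposited 1 table per library of expected counts per gene and cell (values not whole, with no step named for why) and a cell annotation with parent types and sub-types. Seurat and the mm10 build are named per the submitters' processing notes, and the aligner is not given in the sources used here. From these, every cell was kept, and the deposited expected counts were summed per library and parent type and rounded. A type entered a fit in libraries with at least 20 of its cells. The edgeR 4.0.16 quasi-likelihood test was run in R 4.3.3 over all genes, with filterByExpr, TMM scaling and Benjamini-Hochberg adjustment, and a gene was called at an adjusted p under 0.05, two-sided. Standard errors were derived from each fold change with the F statistic of its test. Young brain fits held 3 groups, blood fits 3, aged fits the 4 day 2 brain groups, and the fit of brain against blood the stroke day 2 libraries. A fit of all 6 young groups was added after the data were seen. DESeq2 1.42.0 was an alternative.

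CPM is a gene's counts per 1000000 counts of that library and type. Groups at 0 were given a floor of 3 counts over the group. This takes a listed 0 as 0 molecules, which values that are not whole do not ensure. Motif matches were sought in windows of 250 bases before to 50 after the start. The ratio of Il1rn to Il1b used a pseudocount of 0.5 and at least 10 counts of the 2 genes together. Pathway genes were named where called with a mean of at least 20 CPM, at most 6 per comparison and type, and the 5 genes of highest r were listed per member, from combinations of at least 50 cells, of which the text gives a selection. Doublets were not removed; the 5% of cells with most counts were left out in an alternative. Libraries shared at most 0.170% of the smaller library's barcodes. Labels do not say what a shared library number means. Deviations of same-numbered day 2 and day 14 stroke libraries of young brain correlated above 0.1 in all 4 pairs in microglia (0.199 to 0.555), monocyte-derived cells (0.443 to 0.871) and endothelial cells (0.306 to 0.762), so this comparison is also given with a replicate block. Pairs with sham and pairs in blood were not all above 0.1. In young brain the block joins same-numbered libraries of all groups in the fit, sham included. The members, lists and tests were chosen with earlier results of these data known. On simulated data with 200 genes changed by 2 on the log2 scale, the test recovered 82% in microglia (9781 genes), 45% in monocyte-derived cells (7589), 96.5% in granulocytes (875) and 95.5% in blood neutrophils (4682). Python 3.11.15 with pandas 2.3.3, numpy 2.4.6, scipy 1.17.1 and matplotlib 3.10.9 was used. Promoters came from RefSeq on GRCm38.p6.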

Additional observations from a re-analysis of the deposited data

Results flagged for a closer look

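In groups of 4 libraries, 76 checks looked for a library far from the other 3, in members with a mean of at least 20 CPM, and 6 were marked; chance marks about 1 group in 20. In border macrophages, sham library 4 had Il1rn at 151 CPM against 0 to 19.8 CPM, and stroke day 2 library 3 had Il1b at 4384 CPM against 735 to 1166 CPM. In brain granulocytes, day 14 library 3 had Il1rn at 2242 CPM against 1613 to 1665 CPM. In microglia, sham library 3 had Il1a at 229 CPM against 109 to 128 CPM, and stroke day 2 library 3, the one with 58 microglia, had Il1b at 561 CPM against 0 to 92.7 CPM. In blood neutrophils, day 2 library 4 had Il1rn at 179 CPM against 148 to 152 CPM.

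Stroke changes that differed between brain and blood by a test of the difference were those of Il1rn. In brain granulocytes against blood neutrophils the day 14 changes differed by 2.84 on the log2 scale (edgeR adjusted p = 0.000310). In brain monocyte-derived cells against blood monocytes the day 2 changes differed by 3.14 (edgeR adjusted p = 0.0381), a call lost in 10 of 16 fits that left out 1 library, without the 5% of cells with most counts (adjusted p = 0.0626), without TMM scaling (adjusted p = 0.0816) and with values rounded up before summing (adjusted p = 0.0664).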

How the results depend on the processing

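No result changed direction among those called. The count of members called in young brain at day 14 against sham was 4, and 8 without TMM scaling and 8 with the replicate block. Calls over all genes moved too without TMM scaling, in microglia from 1544 to 3425, in granulocytes from 259 to 260 and in monocyte-derived cells from 416 to 399. In blood neutrophils at day 14 against sham they went from 296 to 392. The counts in this paragraph show how calls depend on settings and are not results about the members. Between day 14 and day 2 it was 2, and 1 without the 5% of cells with most counts, 0 with no filter on low counts, 1 with only the compared groups fitted, and 0 to 2 when leaving out 1 library. In blood, with 2 at day 14 against sham, it was 1 without TMM scaling, 4 with no filter and 0 to 2 when leaving out 1 library; between the times it was 0 to 3 when leaving out 1 library, and at day 2 it was 3 with no filter. In aged brain, leaving out 1 library gave 0 to 5, and against young stroke no filter gave 2 and leaving out 1 library 0 to 1. Brain against blood at stroke day 2, with 5, gave 2 with no filter and 3 to 5 when leaving out 1 library. In the fit of all 6 groups, leaving out 1 library gave 1 to 2 in sham and 4 to 7 at day 14, and at day 2 3 to 7, with 3 for no filter. The difference of the day 2 changes, with 1, gave 2 in DESeq2, 0 without the 5% of cells with most counts and 0 to 1 when leaving out 1 library. The cause was not tested. With the replicate block, young brain gave 7, 8 and 3 calls in the 3 comparisons, blood 0, 2 and 2, and brain against blood 5. Between day 14 and day 2 in young brain, where same-numbered libraries correlated, the block changed no call but Il1rap and Il1b in microglia and Il1r2 in monocyte-derived cells. Against sham it added Il1b in microglia at day 14 (adjusted p = 0.00466) and, in monocyte-derived cells, Il18 (0.0222 at day 2, 0.0482 at day 14), Il1a (0.0246, 0.0317) and Il1r2 at day 14 (0.0479). Between brain and blood at day 2 it added Il18 in monocyte-derived cells (0.0413) and ended Il1b in granulocytes (0.0715).

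Without TMM scaling, the median of all genes moved by -0.45 in microglia and by -0.39 in monocyte-derived cells at day 14, by -0.42 in the latter at day 2, by -0.66 in aged monocyte-derived cells, and by 0.50 in granulocytes and 0.34 in neutrophils at day 14. The share of called genes that were higher went from 69.4% to 19.6% in microglia at day 14, from 84.3% to 50.7% in monocyte-derived cells at day 2, from 49.8% to 76.2% in granulocytes and from 36.5% to 74.7% in neutrophils. Few sham monocyte-derived cells (43 to 99 per library) and aged granulocytes (31 to 45) limit these comparisons.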
